A study of Mus musculus with 12 samples.

Results

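Fancc and 8 other genes that lie around it on mouse chromosome 13 were described probe set by probe set. The genes are Zfp935, Zfp934, 6720489N17Rik, Fbp2, Fbp1, Aopep, Fancc, Ptch1 and Ercc6l2, in their order along the chromosome. They are read by 22 of the 45037 probe sets that are not controls, each given to exactly 1 of these symbols by the platform annotation. They were chosen by their position near Fancc together with the genotype differences measured on these same arrays. Differences between genotypes are therefore given for them as a description, with no test. Only the response to TNF (tumour necrosis factor alpha), a cytokine of inflammation, was tested. The response within a genotype, and the difference of responses between genotypes, share arrays with the genotype differences. Their p-values are therefore not free of the choice of genes.

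The cells were KSL cells, the bone marrow fraction that is positive for c-Kit and Sca-1 and lacks lineage markers, in which haematopoietic stem cells and early progenitors are found. They came from wild-type mice or from Fancc-/- mice, labelled mutant, all aged 2 to 4 months. All cultures were kept for 24 h in 10% serum with stem cell factor, Flt3 ligand and the interleukins IL-11 and IL-6, and TNF at 10 ng/ml was added to the treated ones at plating. The 12 arrays formed 4 groups of 3, namely wild type and mutant, each with and without TNF. The mouse strain, the form of the Fancc allele and whether replicates came from separate mice are not given in the sources used here, so p-values measure only the spread between these samples, which may be technical.

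Values are log2 expression per probe set, from 2.14 to 14.55 over all probe sets and arrays. Of the 2 positive markers that define KSL cells, Kit had a mean level of 10.39, and Ly6a, which encodes Sca-1, had no probe set with a single symbol. Cd34 and Flt3, which are not part of that definition, had mean levels of 12.98 and 11.75. Lineage markers were read too. A mean level below 5 was found for 0 of 12 granulocyte and 1 of 12 monocyte and macrophage markers. The same held for 3 of 8 erythroid and megakaryocyte and 4 of 9 lymphoid markers. Granulocyte markers ran from Cxcr2 at 5.77 to Ctsg at 13.31. Of 10 stromal, endothelial and liver-type markers, 7 had a mean level below 5, among them Alb at 4.76 and Col1a1 at 4.66, while Pecam1 read 8.79, Vwf 6.37 and Ttr 5.71. Pecam1, which blood cells also express, fell with TNF by 1.18 on the log2 scale (limma adjusted p = 0.00034). Sex-linked transcripts differed between replicates. Xist read at most 5.47 on 3 untreated arrays, wild-type replicates 1 and 2 and mutant replicate 1, and at least 12.04 on the other arrays. Eif2s3y read 3.79 on treated wild-type replicate 3, 4.16 on untreated mutant replicate 2 and at least 10.46 elsewhere. Their part in the results below was not tested apart from a fit with both levels as covariates. In bulk samples of this kind, fewer cells of a type and less RNA per cell cannot be told apart.

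The product of Fancc belongs to the core complex of the Fanconi anaemia pathway, a ubiquitin ligase that starts the repair of DNA crosslinks, and loss of the complex in people and mice impairs haematopoietic stem cells. Its neighbours have various roles. Fbp1 and Fbp2 encode fructose-1,6-bisphosphatases, which run the step of gluconeogenesis that opposes phosphofructokinase. Aopep encodes an aminopeptidase, Ptch1 the receptor for Hedgehog ligands, and Ercc6l2 a helicase-like protein of the SNF2 family that acts in DNA repair. Zfp934, Zfp935 and 6720489N17Rik belong to a cluster of zinc-finger genes. In the RefSeq annotation Aopep and Fancc are read from opposite strands and their ends overlap.

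The largest differences between genotypes among these genes were in Fbp1 and 6720489N17Rik. Fbp1 was 12.4-fold higher on the mutant arrays averaged over treatment, with a log2 difference of 3.63 (SE 0.30, 6 arrays per genotype). 6720489N17Rik was lower by log2 differences of -1.10 (SE 0.09) and -1.08 (SE 0.13) in its 2 probe sets. Fancc itself was not lower on the mutant arrays in any of its 3 probe sets. For 3 of the 22 probe sets, 1 each of Fbp1, Fancc and 6720489N17Rik, no mutant array overlapped any wild-type array, against 0.211% of all probe sets. Within untreated arrays 8 of 22 did not overlap between genotypes, against 8.06% of all probe sets, and within treated arrays 7 of 22, against 10.2%. These shares follow from how the genes were picked and are read no further. Over the 22 probe sets the median genotype difference was -0.04, beside 0.00062 over all probe sets, and the median size of the difference was 0.14, beside 0.08.

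**Figure D1:**
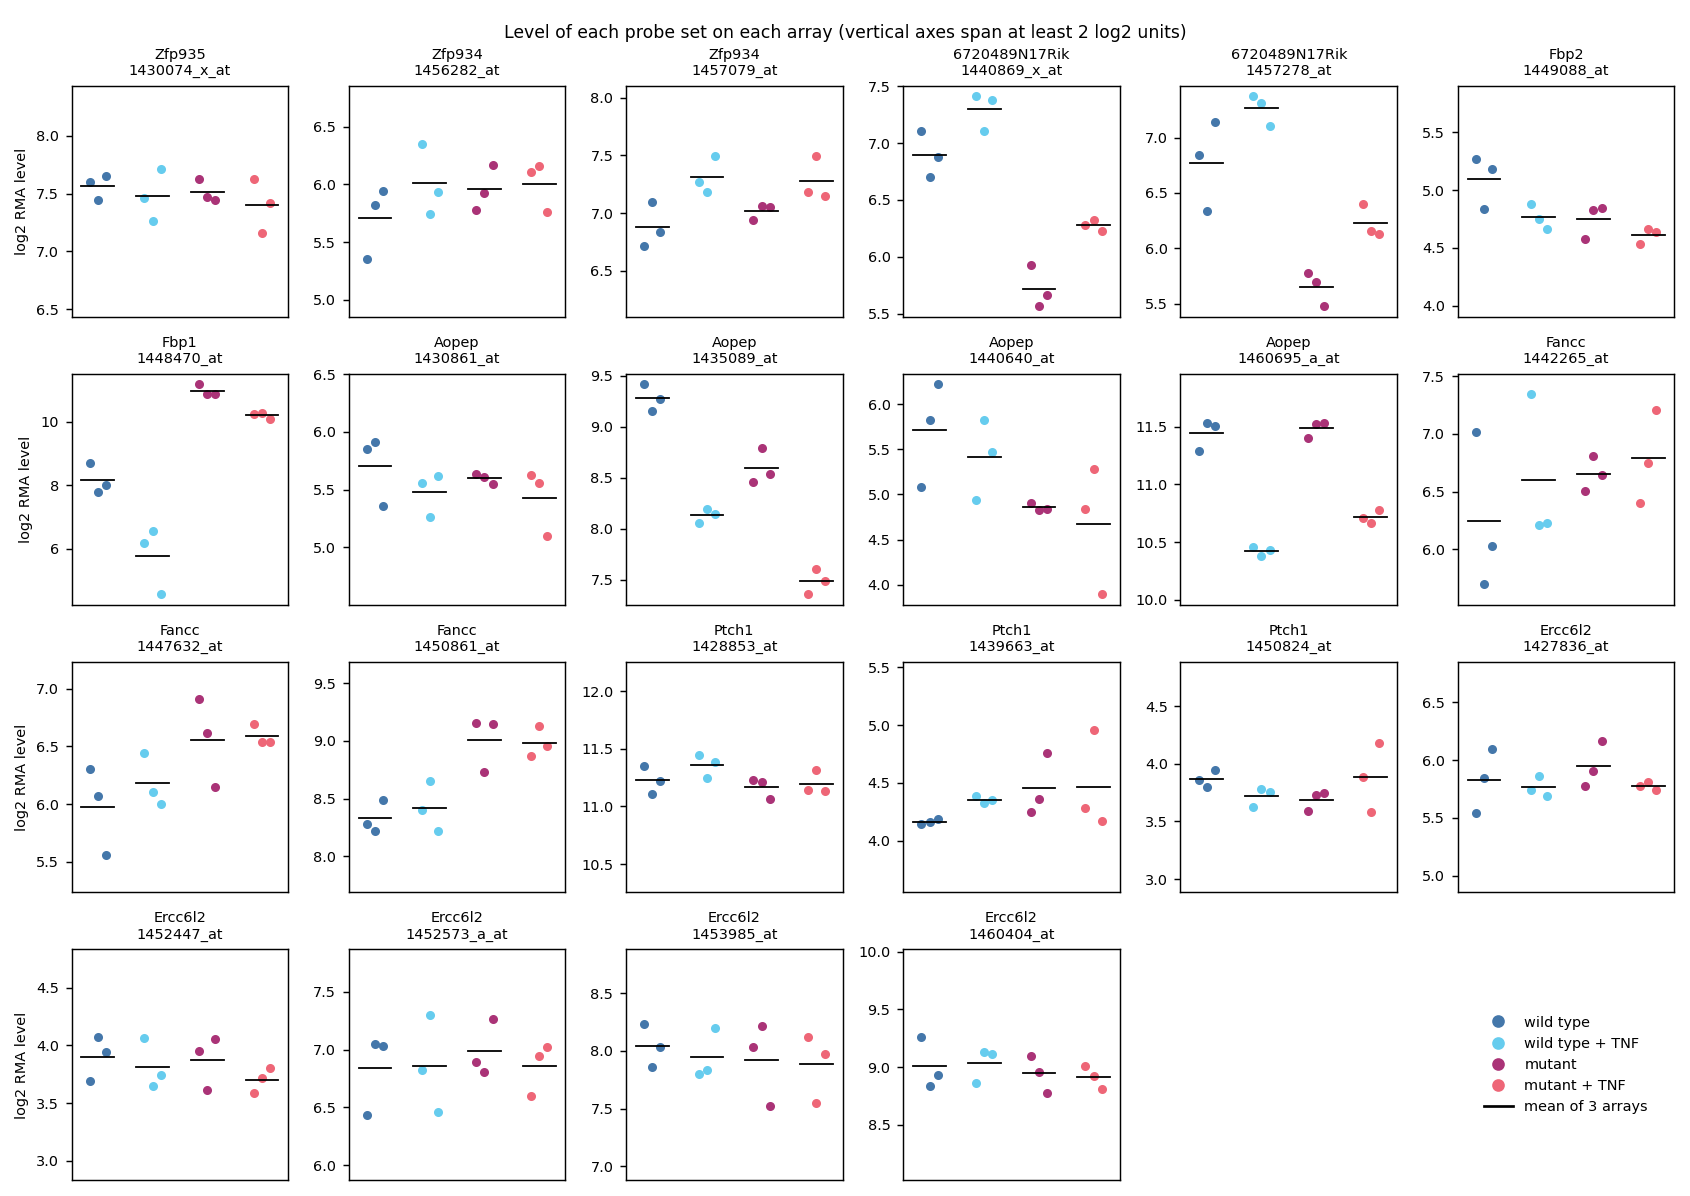
Level of each of the 22 probe sets on each array, in log2 units on the vertical axis, with 1 point per array, the 4 groups side by side from left to right and a line at the mean of 3 arrays. Fbp1 sits between 10.09 and 11.20 on the mutant arrays and between 4.56 and 8.71 on the wild-type arrays, and most other panels show overlapping groups.

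Fancc was read by probe sets 1450861_at, 1442265_at and 1447632_at. Without TNF, 1450861_at read 8.28, 8.22 and 8.49 in wild type, and with TNF 8.40, 8.65 and 8.22. It read 9.16, 8.73 and 9.15 on the untreated mutant arrays and 8.87, 9.12 and 8.95 on the treated ones. Every mutant array was therefore above every wild-type array, while the treated and untreated arrays of each genotype overlapped. The difference was 0.68 (SE 0.15) without TNF and 0.56 (SE 0.15) with TNF, and 0.62 (SE 0.10) averaged over both.

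Probe set 1447632_at read 6.30, 6.07 and 5.56 on untreated and 6.45, 6.11 and 6.01 on treated wild-type arrays. On the mutant arrays it read 6.91, 6.62 and 6.15 without TNF and 6.69, 6.54 and 6.54 with TNF. Here the genotypes overlapped through 1 untreated mutant array at 6.15, and the average difference was 0.49 (SE 0.15). Probe set 1442265_at differed by 0.30 (SE 0.26), with wild-type arrays from 5.70 to 7.34 and mutant arrays from 6.40 to 7.21, so its groups overlapped widely. Which exons the 3 probe sets read was not analysed here. A probe set outside the disrupted part of the gene checks nothing, so the mutant label could not be checked from Fancc and is used as given.

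TNF moved no Fancc probe set past the threshold, an adjusted p under 0.05 in limma over all 45037 probe sets. Averaged over genotype the log2 changes were 0.03 in 1450861_at, 0.24 in 1442265_at and 0.12 in 1447632_at (adjusted p = 0.896, 0.654 and 0.711). The 95% interval for 1450861_at ran from -0.20 to 0.26. For 1442265_at the interval was wider, from -0.34 to 0.82. The bases before the Fancc start are shown because this is the disrupted gene. They are the 250 bases upstream in the RefSeq promoter table for GRCm38.p6, on the minus strand at chr13:63431746-63431995. Capitals mark 1 CCAAT motif and 1 GAGGAA motif, both on the opposite strand.

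Fancc: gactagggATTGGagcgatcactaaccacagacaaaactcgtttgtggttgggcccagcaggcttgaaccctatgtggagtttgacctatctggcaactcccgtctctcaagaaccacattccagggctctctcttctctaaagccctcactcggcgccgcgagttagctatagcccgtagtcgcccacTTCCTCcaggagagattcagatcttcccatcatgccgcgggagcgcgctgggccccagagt

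Fbp1 was read by the single probe set 1448470_at, and its 4 groups did not overlap at all. In wild type it read 8.71, 7.79 and 8.02 without TNF and 6.19, 6.54 and 4.56 with TNF. It read 11.20, 10.89 and 10.89 on the untreated mutant arrays and 10.26, 10.29 and 10.09 on the treated ones. The order of the group means was treated wild type at 5.76 ± 1.06, untreated wild type at 8.17 ± 0.48, treated mutant at 10.21 ± 0.11 and untreated mutant at 10.99 ± 0.18 (SD, n = 3 each). Each step in that order was larger than the spread of both groups.

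The genotype difference of Fbp1 was 2.82 (7.05-fold, SE 0.42) without TNF and 4.45 (21.8-fold, SE 0.42) with TNF. Averaged over treatment it ranked 1 in size among all probe sets. The untreated mutant array with low Xist, replicate 1, read 11.20, and the untreated wild-type arrays with low Xist read 8.71 and 7.79. Of the arrays with low Eif2s3y, treated wild-type replicate 3 read 4.56, the lowest Fbp1 level of all, beside 6.19 and 6.54 in its group. Untreated mutant replicate 2 read 10.89. The average difference ran from 3.33 to 3.83 over 18 alternatives, the fit with Xist and Eif2s3y levels as covariates included. Most of these alternatives leave it unchanged or can move it by less than the spread between replicates. The range therefore says little about stability.

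TNF lowered Fbp1 in wild-type cells, where the level fell by 2.41 on the log2 scale (5.32-fold, SE 0.42, limma adjusted p = 0.0132), with all 3 treated arrays below all 3 untreated ones. The same treated arrays enter the genotype difference with TNF, so this p-value is not free of the choice of Fbp1. On the mutant arrays the log2 change was -0.78 (SE 0.42, adjusted p = 0.486), which did not pass, although the 3 treated arrays again lay below the 3 untreated ones. In a fit of only the groups compared, the change in wild type did not pass (adjusted p = 0.114) and the change on the mutant arrays did (adjusted p = 0.0332). The fit with Xist and Eif2s3y levels as covariates also gave no pass in wild type (-2.15, adjusted p = 0.0607). Without treated wild-type replicate 3, whose level of 4.56 was the lowest, the wild-type change was -1.81 and passed (adjusted p = 0.00662). Over 19 alternatives the adjusted p in wild type ran from 0.00662 to 0.114.

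The Fbp1 response to TNF was larger in wild type by 1.63 on the log2 scale (SE 0.59, 95% interval 0.32 to 2.94), but this difference of responses did not pass over all probe sets (limma adjusted p = 1, unadjusted p = 0.0195). It is made of the same genotype differences that led to the choice of Fbp1. Averaged over genotype, TNF lowered Fbp1 by a log2 change of -1.60 (SE 0.30, adjusted p = 0.00847), lower in both genotypes, and this passed in all 18 alternatives (adjusted p from 0.00165 to 0.031). Genes of granulocytes and of monocytes and macrophages fell with TNF too. Of 12 granulocyte markers 10 fell and 0 rose averaged over genotype, with mean list levels of 10.78 to 11.22 and 8.04 to 8.96 on untreated and treated wild-type arrays and 11.26 to 11.62 and 8.69 to 9.97 on the mutant ones. Of 12 monocyte and macrophage markers 6 fell and 1 rose, with mean list levels in the same order of 8.90 to 9.09, 7.88 to 8.04, 8.89 to 9.36 and 7.78 to 8.96. Over all genes 4.95% rose and 4.77% fell. These 2 lists also stood higher on the mutant arrays, with median genotype differences of 0.73 and 0.29 beside -0.01 over all genes, though 0 of 12 genes in either list separated the genotypes. The median of the stem and progenitor markers went the other way, at -0.29 over 14 genes, but the genes were not uniform. Mecom stood at -0.56, Meis1 at -0.41 and Mycn at -0.64. Cd34 (-0.09), Flt3 (-0.05) and Procr (-0.05) differed little, and Slamf1 (0.05) and Cd48 (0.28) were higher on the mutant arrays. Kit, which marks the sorted cells, was lower on every mutant array (9.95 to 10.38) than on every wild-type array (10.41 to 10.77), a difference of -0.31. It was the only gene of the 14 to separate the genotypes, against 0.225% of all genes, and was named after its value was seen. The mean level of this list was 9.63 to 10.02 and 9.90 to 9.97 on untreated and treated wild-type arrays, and 9.45 to 9.70 and 9.62 to 9.81 on the mutant ones. The part of differences in cell makeup in the Fbp1, Aopep and 6720489N17Rik values was not tested.

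The Fbp1 promoter is shown because its gene had the largest genotype difference and fell with TNF. It is the RefSeq window of 250 bases upstream on the minus strand of GRCm38.p6 at chr13:62888283-62888532. Capitals mark 1 CCAAT motif on the opposite strand, 1 match of GGGCGG, and 2 matches of GAGGAA, 1 on each strand.

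Fbp1: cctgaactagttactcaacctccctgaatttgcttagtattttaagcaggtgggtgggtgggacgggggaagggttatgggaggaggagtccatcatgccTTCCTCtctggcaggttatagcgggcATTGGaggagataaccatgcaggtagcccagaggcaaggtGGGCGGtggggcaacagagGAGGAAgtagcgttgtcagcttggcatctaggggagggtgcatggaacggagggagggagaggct

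Fbp2, the neighbour and paralog of Fbp1, did not share its genotype difference. Its probe set 1449088_at read 4.54 to 5.27 over all arrays, low on this scale. The means were 5.10 ± 0.23 in untreated and 4.76 ± 0.11 in treated wild type, and 4.75 ± 0.15 and 4.61 ± 0.07 in untreated and treated mutant (SD, n = 3 each), and neighbouring groups overlapped. The genotype difference was -0.25 (SE 0.09), opposite in sign to that of Fbp1. The TNF change averaged over genotype was -0.24 (SE 0.09, adjusted p = 0.145) and did not pass, though it did without untreated wild-type replicate 2 (-0.30, adjusted p = 0.0438). It was -0.33 in wild type and -0.14 on the mutant arrays, in the direction of Fbp1, and neither passed.

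**Figure D2:**
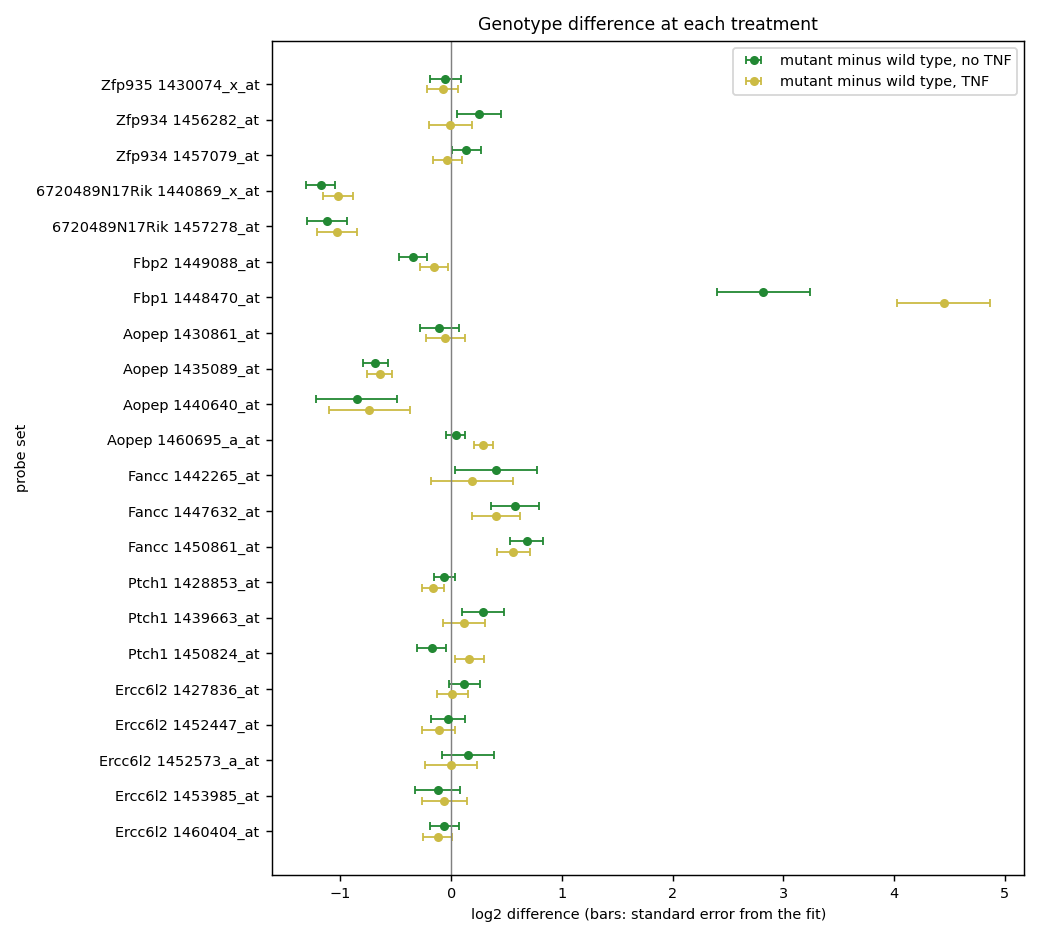
Mutant minus wild type for each probe set without and with TNF, as a log2 difference on the horizontal axis with the standard error of the fit as bars. Fbp1 stands at 2.82 and 4.45, 6720489N17Rik below -1 in both probe sets, and the 4 Aopep probe sets lie on both sides of 0.

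Aopep had the clearest response to TNF among these genes, and its 4 probe sets differed in what they showed. Probe set 1460695_a_at read 11.29, 11.54 and 11.51 on untreated and 10.46, 10.38 and 10.43 on treated wild-type arrays. It read 11.40, 11.52 and 11.53 on untreated and 10.71, 10.66 and 10.78 on treated mutant arrays. Treated arrays lay below untreated ones in both genotypes. The fall passed in wild type at -1.02 (2.03-fold, SE 0.09, limma adjusted p = 0.000177) and on the mutant arrays at -0.77 (1.70-fold, SE 0.09, adjusted p = 0.00113).

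Probe set 1435089_at read 9.42, 9.15 and 9.27 on untreated and 8.06, 8.19 and 8.15 on treated wild-type arrays. It read 8.46, 8.79 and 8.54 on untreated and 7.36, 7.61 and 7.49 on treated mutant arrays, so that all 4 groups stood apart. TNF lowered it by -1.15 (2.22-fold, SE 0.11, adjusted p = 0.000397) in wild type and by -1.11 (2.16-fold, SE 0.11, adjusted p = 0.000527) on the mutant arrays. Both Aopep calls in each genotype passed in every alternative that was run.

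The genotype difference of Aopep depended on the probe set. In 1435089_at the mutant arrays were lower by a log2 difference of -0.68 (SE 0.11) without TNF and -0.65 (SE 0.11) with TNF. In 1460695_a_at the difference was 0.04 (SE 0.09) without TNF and 0.29 (SE 0.09) with TNF, the mutant arrays being higher. In 1440640_at it was -0.80 (SE 0.26) averaged over treatment, with wild-type arrays from 4.94 to 6.22 and mutant arrays from 3.89 to 5.29, and in 1430861_at it was -0.08 (SE 0.12). The suffix of 1460695_a_at is the maker's mark for a probe set that reads several transcripts of the same gene. Over the 12 arrays r between 1435089_at and 1460695_a_at was 0.724, and with 1440640_at it was 0.513 and 0.089. Which Aopep transcripts each probe set reads was not analysed here.

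The remaining probe sets 1430861_at and 1440640_at read at most 6.22 and did not pass for TNF (-0.20 and -0.24 averaged over genotype, adjusted p = 0.399 and 0.646). The RefSeq window of 250 bases before the Aopep start, on the plus strand of GRCm38.p6 at chr13:62964643-62964892, is shown because Aopep fell with TNF in both genotypes. Capitals mark its single GAGGAA.

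Aopep: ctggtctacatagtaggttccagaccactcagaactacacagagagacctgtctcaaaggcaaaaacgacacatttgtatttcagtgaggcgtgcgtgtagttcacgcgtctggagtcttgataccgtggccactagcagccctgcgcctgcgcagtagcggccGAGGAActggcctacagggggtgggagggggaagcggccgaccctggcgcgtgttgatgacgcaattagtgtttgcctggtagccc

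The promoters were searched on both strands for 5 motifs. They were the NF-kB consensus, the TATA box TATAAA, the CCAAT box, the GC box with the letters GGGCGG, and the purine-rich core GAGGAA found in sites of the myeloid factor PU.1. No motif overlaps another in the windows printed here. RefSeq held a window for 8 of the 9 genes, all but Zfp934. No window of these 8 held the NF-kB consensus or TATAAA, which were found in 7.25% and 12.4% of 32851 promoter windows of the same length. CCAAT stood in 33.9% of all windows, GGGCGG in 32.7% and GAGGAA in 23.3%. A match is a description of the letters, and the absence of a match says nothing about a factor.

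6720489N17Rik was read by 2 probe sets made against the same transcript accession, so they are not independent (Pearson's r = 0.952 over the 12 arrays). Probe set 1440869_x_at read 7.11, 6.70 and 6.88 on untreated and 7.41, 7.10 and 7.37 on treated wild-type arrays. It read 5.93, 5.57 and 5.66 on untreated and 6.28, 6.32 and 6.22 on treated mutant arrays. All mutant arrays were below all wild-type arrays, and the treated mutant arrays were above the untreated ones. The groups of the other probe set, 1457278_at, ran in the same order, from 5.65 ± 0.16 in untreated mutant through 6.23 ± 0.15 in treated mutant and 6.77 ± 0.40 in untreated wild type to 7.26 ± 0.14 in treated wild type (SD, n = 3 each). There the treated mutant and untreated wild-type arrays overlapped, at 6.40 and 6.34.

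The genotype difference in 1440869_x_at was -1.18 (2.26-fold lower, SE 0.13) without TNF and -1.02 (2.03-fold lower, SE 0.13) with TNF. TNF raised 6720489N17Rik by 0.48 in 1440869_x_at (1.39-fold, SE 0.09, limma adjusted p = 0.0107) and by 0.54 in 1457278_at (1.45-fold, SE 0.13, adjusted p = 0.0295), averaged over genotype. In neither genotype alone did a rise pass, with 0.40 in wild type and 0.56 on the mutant arrays for 1440869_x_at (adjusted p = 0.161 and 0.0623). The mutant change of 1440869_x_at passed in 4 of 19 alternatives, which were the replicate block, 1 probe set per gene, the filter on low values and the fit without untreated wild-type replicate 1 (adjusted p = 0.0336, 0.0357, 0.0408 and 0.0423). The averaged call of 1440869_x_at held in 17 of 18 alternatives and that of 1457278_at in 10 of 17. With Xist and Eif2s3y levels as covariates the rises were 0.56 (SE 0.13) and 0.41 (SE 0.17), and neither passed (adjusted p = 0.0514 and 0.251). Probe set 1457278_at also failed without treated wild-type replicate 1 or 2, untreated mutant replicate 2 or 3, or treated mutant replicate 1 or 2 (adjusted p = 0.0609, 0.0588, 0.0608, 0.0723, 0.0701 and 0.0545).

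Zfp935, the cluster member farthest from Fancc, has an upstream sequence much like that of 6720489N17Rik. The aligned parts of their RefSeq windows are 208 bases long without a gap, and 16 bases differ, an identity of 92.3%. Their longest shared run, 32 bases, occurs in 3 of 32851 promoter windows, those of 6720489N17Rik, Zfp935 and Gm36298. Levels of Gm36298 were not analysed here. The pair is printed because the upstream sequences are alike while the genotype differences are not. Both lie on the minus strand of GRCm38.p6, 6720489N17Rik at chr13:62624185-62624392 and Zfp935 at chr13:62466855-62467062, and capitals mark the bases that differ.

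6720489N17Rik: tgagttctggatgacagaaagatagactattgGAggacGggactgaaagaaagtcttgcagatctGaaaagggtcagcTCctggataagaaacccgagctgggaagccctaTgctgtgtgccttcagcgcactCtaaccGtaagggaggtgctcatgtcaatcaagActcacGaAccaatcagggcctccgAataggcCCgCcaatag
Zfp935: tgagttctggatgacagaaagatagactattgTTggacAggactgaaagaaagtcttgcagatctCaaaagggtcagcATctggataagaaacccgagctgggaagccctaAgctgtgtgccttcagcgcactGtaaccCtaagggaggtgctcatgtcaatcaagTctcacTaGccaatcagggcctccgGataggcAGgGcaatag

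Zfp935 itself showed no separation of the groups. Its probe set 1430074_x_at read 7.60, 7.45 and 7.65 on untreated and 7.46, 7.26 and 7.71 on treated wild-type arrays, and 7.62, 7.47 and 7.45 and 7.63, 7.16 and 7.42 on the untreated and treated mutant arrays. The genotype difference was -0.06 (SE 0.10), and the TNF change of -0.10 did not pass (adjusted p = 0.619). The suffix of 1430074_x_at and 1440869_x_at marks probe sets with probes that may also match other sequences, so signal from related zinc-finger genes could be shared between them.

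Zfp934 was read by 2 probe sets. Probe set 1457079_at read 6.71, 7.10 and 6.84 on untreated and 7.27, 7.18 and 7.49 on treated wild-type arrays, and 6.94, 7.07 and 7.05 and 7.18, 7.50 and 7.15 on the untreated and treated mutant arrays. Treated arrays were above untreated ones in both genotypes, and the rise of 0.34 averaged over genotype passed narrowly (SE 0.09, limma adjusted p = 0.0492). It was lost in 14 of 18 alternatives, among them the leaving out of 11 of the 12 arrays 1 at a time (adjusted p from 0.0502 to 0.112 for these) and the replicate block (0.34, adjusted p = 0.052). Probe set 1456282_at changed by 0.18 with TNF and did not pass (adjusted p = 0.517). The genotype differences were 0.05 (SE 0.09) and 0.12 (SE 0.14), with overlapping arrays.

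Ptch1 and Ercc6l2, which lie on the other side of Fancc from Fbp1, differed little between groups. Ptch1 is itself a target of Hedgehog signalling. Its probe set 1428853_at read 11.06 to 11.45 over the 12 arrays, with a genotype difference of -0.11 (SE 0.07) and a TNF change of 0.08 (adjusted p = 0.547, 95% interval -0.07 to 0.23). Probe sets 1439663_at and 1450824_at read at most 4.96 and 4.18, low on this scale, and their TNF changes of 0.10 and 0.03 did not pass. The 5 Ercc6l2 probe sets had genotype differences from -0.09 to 0.07 and TNF changes from -0.13 to -0.0019, none of which passed. In the probe set 1460404_at Ercc6l2 read 8.78 to 9.26, and the 95% interval of its TNF change ran from -0.21 to 0.20.

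**Figure D3:**
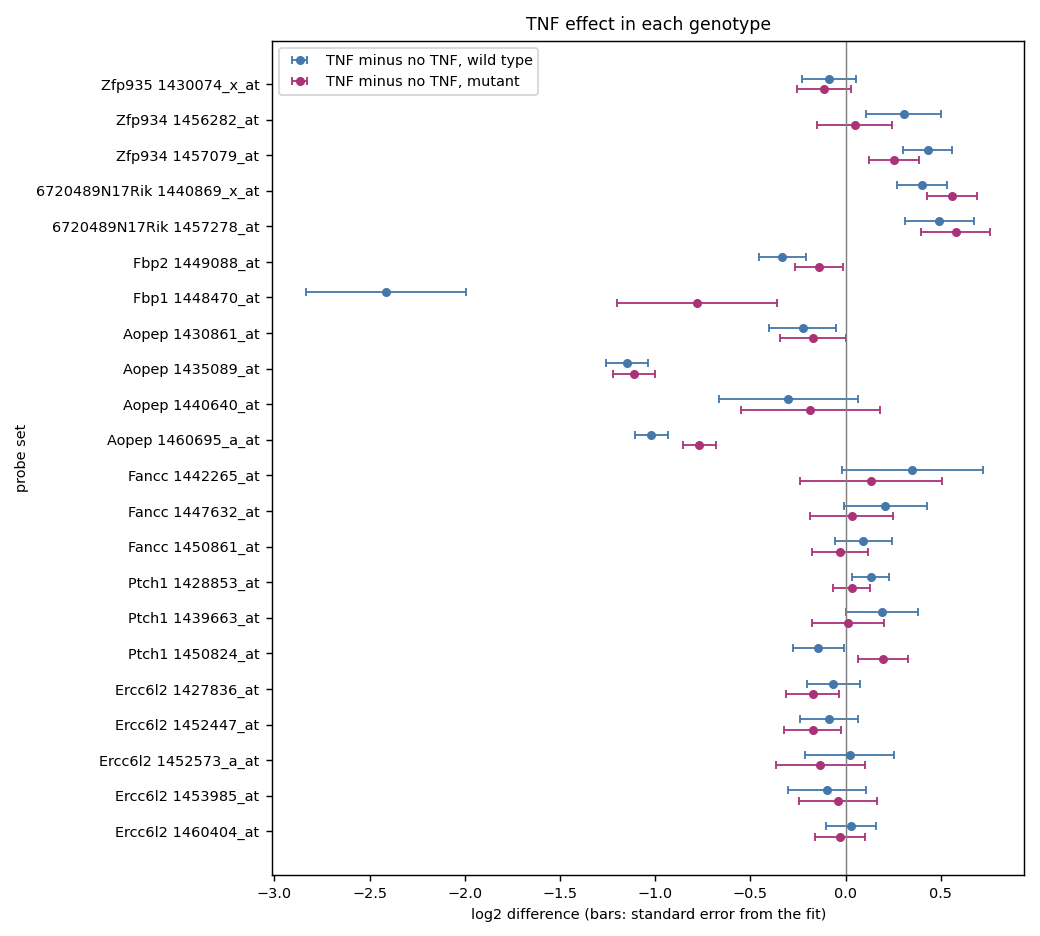
TNF minus no TNF for each probe set in wild type and on the mutant arrays, as a log2 difference on the horizontal axis with the standard error of the fit as bars. Fbp1 stands at -2.41 and -0.78, probe sets 1435089_at and 1460695_a_at of Aopep lie between -1.15 and -0.77, and the probe sets of 6720489N17Rik lie between 0.40 and 0.58.

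Counted over probe sets, TNF passed for 3 of 22 in wild type (Fbp1 and 2 of Aopep, all lower), against 2.58% of all probe sets, and for 2 of 22 on the mutant arrays (both Aopep), against 2.09%. Averaged over genotype 6 of 22 passed, against 7.41% of all. The 3 that rose, in 6720489N17Rik and Zfp934, stand beside 3.8% of all probe sets that rose, and the 3 that fell, in Fbp1 and Aopep, beside 3.61% that fell. They come from 4 of the 9 genes, and probe sets of a gene are not independent. The median TNF change over the 22 was -0.03, and over all probe sets also -0.03. For the difference between the TNF responses 0 of 22 passed in limma, against 0% of all probe sets. An unadjusted p under 0.05 was found for 1 of 22, Fbp1, against 2.86% of all. This difference is made of the genotype differences that led to the choice of genes, so these counts are read no further.

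Other measured genes around Fancc were described next. Along the chromosome, between Zfp935 and Ercc6l2, the only measured gene that was not among the 9 was Gm5141, with a genotype difference of 0.07 (SE 0.10). RefSeq places 24 more genes between them, of which Gm5141 alone had a probe set with a single symbol. Just outside, Gm3604 differed by 0.35 (SE 0.19) at a low mean level of 3.79 and 2810408B13Rik by 0.02 on the Zfp935 side, and Hsd17b3 by 0.17 and Slc35d2 by -0.12 on the Ercc6l2 side. None of these separated the genotypes.

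Among the 92 genes within 50 measured genes on each side of Fancc, the 9 left out, 0 had mutant and wild-type arrays that did not overlap, against 41 of 18194 genes (0.225%). Their median size of difference was 0.07, and 0.07 over all genes. Ctla2b (-0.66, SE 0.17), 4930486L24Rik (-0.42, SE 0.19) and Zfp874b (-0.35, SE 0.19) had the lowest differences, and Gm3604 (0.35), Ctsl (0.29, SE 0.21) and Cdk20 (0.21, SE 0.14) the highest, all with overlapping arrays. In windows of 10, 25 and 100 genes on each side the median size was 0.09, 0.08 and 0.07, with 0 of 12, 0 of 42 and 0 of 192 genes not overlapping. With the probe sets of each gene averaged instead, 1 of the 192 genes did not overlap. At a share of 0.225%, a count of 0 is likely in windows of these sizes. The members left out were themselves picked partly for their genotype differences. The counts therefore cannot show whether differences are confined to the members. Over single probe sets of chromosome 13 outside the 9 genes, the arrays did not overlap for 1 probe set each of Rhobtb3 (-0.50), Prpf4b (-0.11) and Tmem267 (-0.44), which lie 94, 222 and 286 measured genes from Fancc. The brightest Rhobtb3 probe set, used for the windows, differed by -0.43 (SE 0.11) with overlapping arrays.

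**Figure D4:**
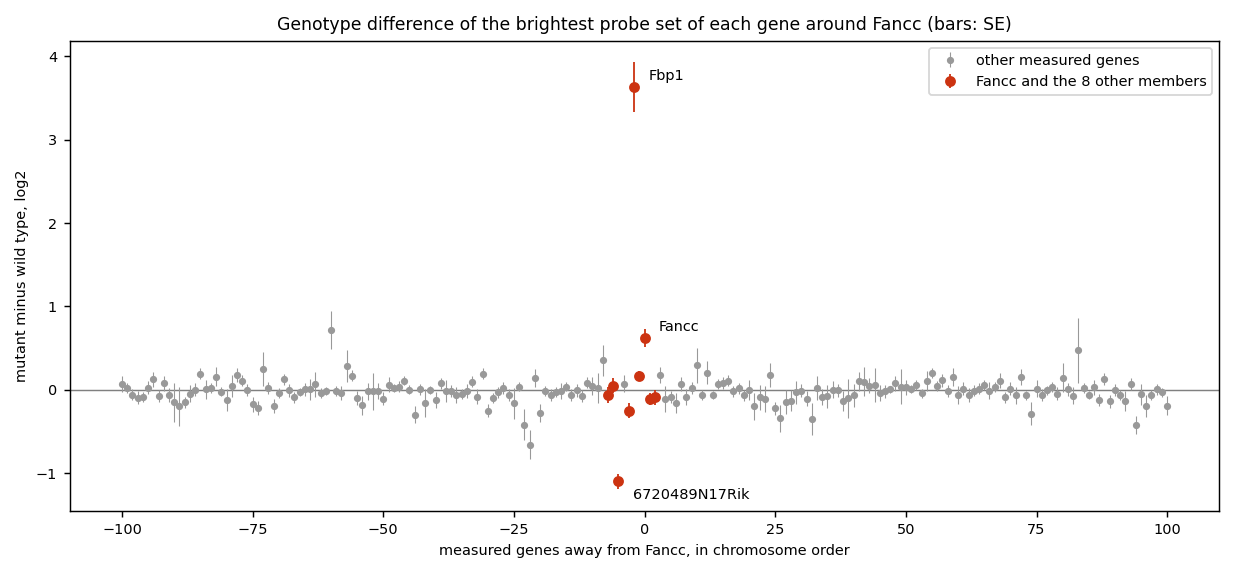
Mutant minus wild type averaged over treatment, as a log2 difference on the vertical axis with the standard error as bars, for the brightest probe set of each measured gene up to 100 genes on each side of Fancc on the horizontal axis. Fbp1 at 3.63, Fancc at 0.62 and 6720489N17Rik at -1.10 separate the genotypes, and grey points are the 192 other measured genes.

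The partners of these genes elsewhere in the genome were compared from lists. Of 21 measured genes of the Fanconi anaemia core complex and its partners, 0 passed for TNF averaged over genotype in limma, with a median of 0.02 beside -0.03 over all genes, where 4.95% rose and 4.77% fell. The smallest p-values there belonged to Faap24 (-0.34, adjusted p = 0.134) and Fancg (0.13, adjusted p = 0.213). The list had a median genotype difference of -0.06, beside -0.01 over all genes, and 0 of 21 separated the genotypes.

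Of 19 measured Hedgehog pathway genes other than Ptch1, 4 rose with TNF and 0 fell, against 4.95% and 4.77% of all genes. The median was -0.03. They were Gli3, a transcription factor of the pathway, at 1.52 (SE 0.29, adjusted p = 0.0099), the receptor gene Gpr161 at 0.99 (SE 0.24), the ciliary kinesin gene Kif7 at 0.69 (SE 0.14) and Disp1, needed for release of Hedgehog ligands, at 0.65 (SE 0.09). Gpr161 and Kif7 passed at adjusted p = 0.0343 and 0.0122 and Disp1 at adjusted p = 0.00196. Of these 19 genes 8 had a mean level below 5.

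Of 16 measured genes of gluconeogenesis and fructose phosphate metabolism, 1 rose with TNF and 2 fell, with a median of -0.09. For comparison with this and the following lists, 4.95% of all genes rose and 4.77% fell. Pcx, the pyruvate carboxylase of gluconeogenesis, rose by 0.77 (SE 0.16, adjusted p = 0.0152), and Pfkp and Pfkfb3, which serve phosphofructokinase activity, changed by -0.75 (SE 0.13, adjusted p = 0.00533) and -0.27 (SE 0.07, adjusted p = 0.0389). Of the 16, 1 separated the genotypes, against 0.225% of all genes. It was Pfkm, with a difference of -0.29, named after its value was seen. Of 16 SNF2-family and related genes 2 rose, Rad54b at 0.58 and Hltf at 0.33, and 1 fell, Ercc8 at -0.48. Of 9 aminopeptidases related to Aopep 1 rose, Anpep at 1.20 (SE 0.16, adjusted p = 0.00143), and 1 fell, Rnpep at -0.62 (SE 0.10, adjusted p = 0.00395).

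The probe sets most like Fbp1, 6720489N17Rik and Fancc were taken by Pearson's r over the 12 arrays, as a description. For Fbp1 they were those of Gm17733 (0.959), Spry3 (0.881), Lats2 (0.87), 4931417E11Rik (0.862) and Ppfia2 (0.86), all but Lats2 with a mean level below 5. For 6720489N17Rik they were Epb41l1 (0.936), Fchsd2 (0.921), Bex1 (0.918), Cttn (0.911) and Rccd1 (0.908), and for Fancc Rbm24 (0.864), 1190005I06Rik (0.854), Neurl1a (0.852), Gm29805 (0.827) and Mid1 (0.817). Of these 15, only Rbm24 lies on chromosome 13. Around the group means r was lower in each case, from -0.398 for Neurl1a to 0.882 for Fchsd2.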

How the data were processed

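Expression was measured on 12 Affymetrix mouse arrays (MOE430 2.0). The deposited values are log2 levels per probe set from RMA, named without a version in the submitters' processing notes, and their log base was taken from the values. RMA corrects background and equalises the arrays, which hides any global shift and compresses differences at low levels. Per the labels, 5 to 15 ng of RNA was amplified for each array. Precision is limited by the number of arrays.

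The 64 control probe sets were left out. The annotation gave 1 symbol to 34945 probe sets, several to 932 and did not list 9160 of the other 45037. A linear model with a mean for each group was fitted to all of them (limma 3.58.1, R 4.3.3), with eBayes and Benjamini-Hochberg adjustment over all, 2-sided. Gene order came from the GRCm38.p6 RefSeq table, which placed 18032 of 18194 genes, and a gene there was represented by its brightest probe set. The fit was checked on simulated data.

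The members and lists were chosen with earlier results of these data known. Named genes were all member probe sets, up to 4 passing genes of each pathway list (otherwise the 2 with the smallest p), the measured genes between and next to the members, the 3 highest and 3 lowest neighbours, and 5 like probe sets for each of 3 members. The chromosome 13 genes farther away, Pfkm and the single cell type markers were named after their values were seen.

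Alternatives were a replicate block, a filter keeping probe sets with 3 values above the median of 6.02 (15 of 22 member probe sets passed), 1 probe set per gene, 2 other scalings, only the groups compared, sex-linked covariates and leaving out each array. Every array was used.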

Additional observations from a re-analysis of the deposited data

How the results depend on the processing

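Of the TNF values for single member probe sets, 1518 of 1548 comparisons with an alternative kept their side of the threshold. A call was lost in 24 and gained in 6, and 0 called values reversed. Direction was not compared for values that passed in neither fit, and some of these changed sign. Fancc 1450861_at, averaged over genotype, did so in 4 of 18 alternatives. All 376 genotype comparisons kept their value within the spread between replicates, but most could not have done otherwise. The replicate block, the filter and 1 probe set per gene leave the averaged difference unchanged. Leaving out 1 array of a group moves it by less than that spread. Only the 2 other scalings and the covariates could have moved a value further, so the count says little about stability. Over all probe sets, TNF calls in wild type numbered 1160, but 522 when only the groups compared were fitted, 476 with Xist and Eif2s3y levels as covariates, and 571 to 1213 when single arrays were left out. Mutant calls numbered 943, but 434 with the covariates and 486 to 1131 when single arrays were left out. Among single arrays left out, the wild-type count fell most when untreated replicates 2 and 3 and treated replicate 3 were each left out (710, 571 and 584), and the mutant count with each untreated replicate (610, 486 and 504) and treated replicates 2 and 3 (538 and 583) left out. Averaged over genotype, 3337 calls became 2207 with 1 probe set per gene, where fewer features were tested, and 1560 with the covariates, and the member count of 6 became 3 with the covariates and 4 to 7 when single arrays were left out. The cause of these shifts was not tested. With a replicate block the counts were 1153, 941 and 3296 and the members called 3, 3 and 5. Samples that share a replicate number did not all deviate together (18 pairs, r from -0.133 to 0.316, 7 above 0.1), although the 6 pairs of replicate 1 were all positive (0.076 to 0.246) and the own number was the best match in 19 of 36 comparisons. The numbers were therefore not taken as pairing. The groups of 3 arrays limit the precision, and 7 of 22 member probe sets fell below the low-value filter, where signal near background compresses differences.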
